A study of Mus musculus with 6 samples.

Results

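Cytokine receptors switch on genes of several of their own inhibitors and of a small family of survival kinases. Here 10 genes of the SOCS and PIM families were followed in germinal center (GC) B cells with and without the IL-21 receptor. They were the SOCS family genes *Cish*, *Socs1*, *Socs2*, *Socs3*, *Socs5*, *Socs6* and *Socs7* and the PIM kinase genes *Pim1*, *Pim2* and *Pim3*, chosen by name out of the 27179 genes of the count table. RNA-seq was done on splenic IgG1+ GC B cells that bound the hapten NP, sorted from mice given NP-KLH in alum, with 6 libraries in all. WT and *Il21r*-/- mice, both on the C57BL/6 background, gave 1 library per genotype on day 7, on day 10 and on day 14. *Il21r*-/- animals lack the receptor for IL-21. By the study's methods, every experiment but a BrdU/EdU time course used irradiated hosts of a congenic strain, given WT or *Il21r*-/- bone marrow. That wording covers these libraries, though it does not name them. The labels give a single mouse per library, whereas the methods describe more mice per genotype than there were libraries, from more than 1 immunization. A supplementary legend gives 3 mice per genotype for the day 7 sort. The number of mice behind the day 10 and day 14 libraries, and the immunization behind each library, are not stated. The p-values measure the spread between these libraries. Each genotype had 3 libraries, 1 per day, so the days were the only replicates of a genotype. A linear effect of day was a term of the model. Each SD with n = 3 is a spread over the days.

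IL-21 binds a receptor made of its own chain and the common gamma chain, which activates the kinases JAK1 and JAK3 and above all the transcription factor STAT3. STAT proteins induce several SOCS genes, whose products bind the receptor or the JAK kinase and recruit a ubiquitin ligase through their SOCS box, closing a negative feedback loop. PIM proteins are serine/threonine kinases that are active as soon as they are made, so that their level is set largely by transcription and turnover of the message, and they promote survival, growth and cell cycle entry. Both families are used as readouts of cytokine signalling in lymphocytes.

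The libraries held 21353438 to 27435124 read counts on genes. Levels are given as CPM, which are counts divided by the library total after TMM scaling in edgeR, or as RPKM, which also divides by the length of the gene model, where genes are compared with each other. A log2 fold change is WT over *Il21r*-/-, so a negative value means a higher level in *Il21r*-/- libraries. A gene was called at a Benjamini-Hochberg adjusted p under 0.05 over the 11005 genes that passed a filter on low counts. The targeted gene *Il21r* had 343.2, 261.1 and 244.8 CPM in WT libraries on days 7, 10 and 14 and 105.0, 126.6 and 111.8 CPM in *Il21r*-/- libraries. Every WT library was above every *Il21r*-/- library, and message was still counted in *Il21r*-/- (log2 fold change 1.29 ± 0.13 (SE), adjusted p = 0.00137, edgeR's quasi-likelihood test). The counts cover the whole gene, and the labels do not say which part is deleted. Of the 11 GC B cell markers 0 were called by edgeR's quasi-likelihood test and 0 by DESeq2, with 4 under an unadjusted p of 0.05, while the fit with the day as a replicate block called 3 as higher in WT and 3 as higher in *Il21r*-/-. They had a summed level of 8100 to 9386 CPM in WT and 8328 to 10230 CPM in *Il21r*-/- libraries. The 8 T cell markers were all below the filter and summed to 0.928 to 1.60 CPM in WT and 0.910 to 1.25 CPM in *Il21r*-/-, and 6 myeloid markers summed to 2.46 to 6.51 and 2.57 to 8.71 CPM.

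Of the 10 genes, *Socs3* was nearly absent in *Il21r*-/- libraries, *Socs5* was higher in them, and no other member was called. In the filtered test over the 3 days, 1 of the 7 members that passed the filter was called, which was *Socs5*. Over all 11005 genes 651 were called, or 5.92%, and 4.52% were called as higher in *Il21r*-/-. The median log2 fold change of the 7 members was 0.05, against -0.01 over all genes tested. *Cish*, *Socs2* and *Socs3* had too few counts for the filter and were tested in a fit of all 16909 genes with a count, in which 1028 genes, or 6.08%, were called, among them *Socs3* and *Socs5*. *Socs4*, the remaining SOCS gene, was no member and had 18.6 to 23.1 CPM, with a log2 fold change of 0.05 ± 0.13 (SE, adjusted p = 0.861, edgeR's quasi-likelihood test).

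**Figure D1:**
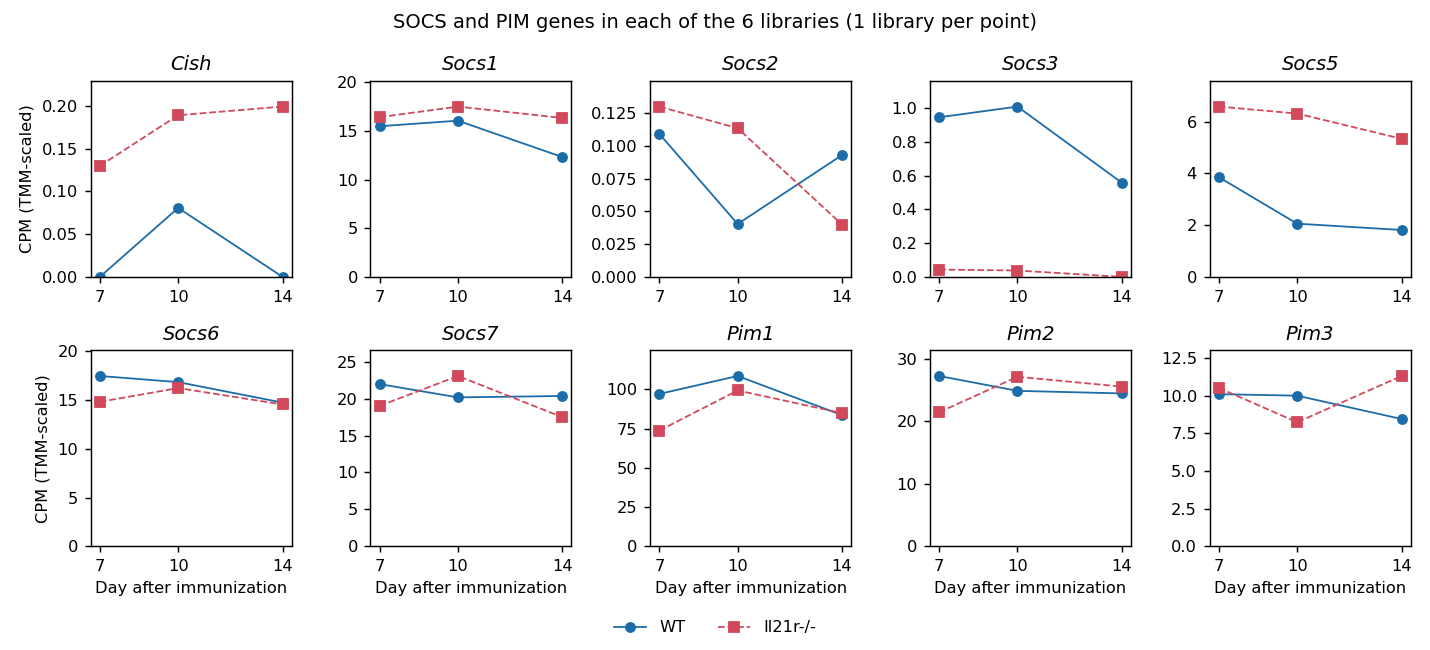
Level of each of the 10 genes (CPM, linear axis from 0, a separate scale per gene) against the day after immunization, with 1 point per library, WT as circles and Il21r-/- as squares. Lines only join the libraries of a genotype. Socs3 sat at 0.558 to 1.01 CPM in WT and at 0 to 0.0433 CPM in Il21r-/- libraries, and Socs5 lay higher in Il21r-/- on each day.

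*Socs3* encodes an inhibitor that binds JAK kinases and receptor chains and is a well known target of STAT3. The gene (Entrez 12702) lies at chr11:117966079-117970336 on the minus strand of GRCm38, and no exon of another gene overlaps it. The RefSeq promoter window at chr11:117969367-117969616 of GRCm38.p6, on the minus strand, lies upstream of a start site inside this span, not of its outer end. It is shown because the STAT consensus TTCNNNGAA, in capitals, occurs in it 1 time, beginning 154 bases before that internal start site. The window of *Socs1* at chr16:10785537-10785786 on the minus strand is shown beside it as a window without such a match. Whether the motif has a part in the level of either gene was not tested.

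Socs3: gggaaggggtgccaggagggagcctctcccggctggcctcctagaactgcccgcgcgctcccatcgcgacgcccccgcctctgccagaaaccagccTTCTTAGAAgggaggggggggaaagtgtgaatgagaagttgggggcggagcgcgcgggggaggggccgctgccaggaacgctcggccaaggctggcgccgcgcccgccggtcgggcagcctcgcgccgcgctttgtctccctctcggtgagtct
Socs1: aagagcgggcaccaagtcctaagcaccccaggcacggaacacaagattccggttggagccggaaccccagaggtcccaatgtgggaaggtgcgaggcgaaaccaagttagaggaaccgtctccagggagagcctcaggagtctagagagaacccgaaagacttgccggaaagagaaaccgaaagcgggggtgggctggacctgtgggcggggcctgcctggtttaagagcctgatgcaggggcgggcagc

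The motif is its own reverse complement, so both strands were read at the same time. Of the 10 members 6 had an entry in the RefSeq promoter table, and *Socs3* alone among them held the motif. The motif was in 7.02% of all 32851 promoter windows, and in 5.78% of the 10781 windows of tested genes. The form with a spacer 1 base longer occurred in 5.85% of all windows and in no window of a member. A match describes letters and is not a measured binding site. Part of the *Socs3* window, from 117969375 to 117969451, is also an exon of a noncoding *Socs3* transcript in GENCODE. *Socs2*, *Socs5*, *Socs6* and *Socs7* had no entry.

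The *Socs3* message was scarce in WT GC B cells and close to absent in *Il21r*-/- ones. WT libraries held 26, 25 and 12 counts on days 7, 10 and 14, and *Il21r*-/- libraries held 1, 1 and 0. In scaled units these were 0.946, 1.01 and 0.558 CPM in WT and 0.0433, 0.0378 and 0 CPM in *Il21r*-/-. The genotypes did not overlap on any day, and the lowest WT library stood far above the highest *Il21r*-/- library. Summed over days, 63 counts faced 2, a depth-corrected ratio of 31.9 (95% interval 8.46 to 269, from the counts alone). The ratio was 21.8 (3.59 to 895) on day 7 and 26.7 (4.37 to 1095) on day 10. On day 14, with 0 counts in *Il21r*-/-, the ratio had no upper bound, and the lower end of its 95% interval was 3.24. Set against a floor of 3 counts in that library, WT was 4.67-fold higher. The intervals cover counting error only, since reads are not independent molecules, and the wide upper bounds come with *Il21r*-/- counts of 1 or 0. In the fit of all genes with a count *Socs3* was called over 3 days (adjusted p = 5.34e-05, edgeR's quasi-likelihood test), as it was with DESeq2 on the same genes (adjusted p = 0.00174). It stayed called when each library was left out in turn and with the day as a replicate block. An exact two-sided permutation test of the CPM, which exchanged libraries freely across days, gave p = 0.1, the smallest value possible for 3 against 3. It ignored the pairing of the genotypes by day. In bulk RNA, fewer cells with the message and less message per cell cannot be told apart.

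*Socs5* moved the other way. Its product is an inhibitor described for the IL-4 and epidermal growth factor receptors. The gene (Entrez 56468) lies at chr17:87107278-87137647, with no overlapping exon of another gene. Its level in WT libraries was 3.86, 2.06 and 1.81 CPM on days 7, 10 and 14, from 106, 51 and 39 counts. The *Il21r*-/- libraries had 6.58, 6.32 and 5.34 CPM, from 152, 167 and 134 counts. All 3 *Il21r*-/- libraries were above all 3 WT libraries, and the day 7 WT library was the nearest to them. The means were 6.08 ± 0.655 CPM in *Il21r*-/- and 2.58 ± 1.12 CPM in WT (SD, n = 3 each), a 2.42-fold higher level in *Il21r*-/- (95% interval 1.71 to 3.43). The log2 fold change was -1.28 ± 0.22 (SE, adjusted p = 0.0123, edgeR's quasi-likelihood test), and it was -1.28 ± 0.20 with adjusted p = 1.64e-05 in the fit with the day as a replicate block, which called 22.9% of all genes. The call was lost without the WT day 14 library (-1.20, adjusted p = 0.128) and without the *Il21r*-/- day 14 library (-1.14, adjusted p = 0.0512), both by edgeR's quasi-likelihood test.

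Taken day by day, the *Socs5* difference was 1.71-fold (0.993 to 2.93) on day 7, 3.06-fold (1.73 to 5.44) on day 10 and 2.94-fold (1.62 to 5.35) on day 14, in each case higher in *Il21r*-/-. It was called on day 10 (adjusted p = 0.0073) and day 14 (adjusted p = 0.0169) but not on day 7 (adjusted p = 0.93), by edgeR's likelihood ratio test of 1 library of each genotype with the spread taken from all 6. With the Wald test of DESeq2 the adjusted p was 0.0557 on day 10 and 0.0756 on day 14, and neither day was called. The share of all genes called was 1.07% on day 7, 3.1% on day 10 and 3.28% on day 14, and *Socs5* was the single member called on each of the last 2. On day 7 edgeR called 0 of the 7 members, 0 were under an unadjusted p of 0.05, and the fit with the day as a replicate block also called 0, with 2 under an unadjusted p of 0.05. Whether the genotype difference changed with time was tested directly. The difference of the day effect was -0.78 ± 0.51 on the log2 scale from day 7 to day 14 (SE, adjusted p = 1, edgeR's quasi-likelihood test), so the larger fold on later days was within the error. That test called 0 of 11005 genes, or 0%, with 118 genes and 0 members under an unadjusted p of 0.05, and DESeq2 also called 0.

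The marker genes of the GC zones differed between genotypes in the same libraries. The light zone of a GC is where B cells meet follicular helper T cells, and the dark zone is where they divide. All 8 light zone markers had a higher mean in *Il21r*-/-, 3 of them (*Cd83*, *Cd40* and *Cd69*) were called, or 6 with the day as a replicate block, and their summed level was 1471 to 1724 CPM in *Il21r*-/- and 840 to 1096 CPM in WT. Of 7 dark zone markers 0 were called by edgeR's quasi-likelihood test, with 4 under an unadjusted p of 0.05, while DESeq2 called 2 and the fit with the day as a replicate block 4. A higher mean in WT was seen for 6 of the 7, and they summed to 1319 to 1671 CPM in WT and 1134 to 1306 CPM in *Il21r*-/-. All 6 markers of B cells outside the GC had a higher mean in *Il21r*-/-, 3 of them were called, and their summed levels overlapped, at 147 to 342 and 197 to 339 CPM. The part of these shifts in the *Socs5* and *Socs3* differences was not tested.

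The genes whose pattern over the 6 libraries was closest to that of *Socs5* were *Fam169b* (Pearson's r = 0.999 of log2 CPM, n = 6), *Fam210b* (r = 0.998) and *Chic1* (r = 0.997). They were picked as the closest among all tested genes, and the 6 points share genotype and day. *Fam169b* had 6.84, 2.30 and 1.91 CPM in WT and 16.5, 14.3 and 11.8 CPM in *Il21r*-/- on days 7, 10 and 14. Like *Socs5*, it was lowest in the later WT libraries. Of the 11 other tested genes within 1000 kb of *Socs5*, 1 was called, *Msh6*, which was higher in WT (log2 fold change 0.47, adjusted p = 0.0412, edgeR's quasi-likelihood test).

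**Figure D2:**
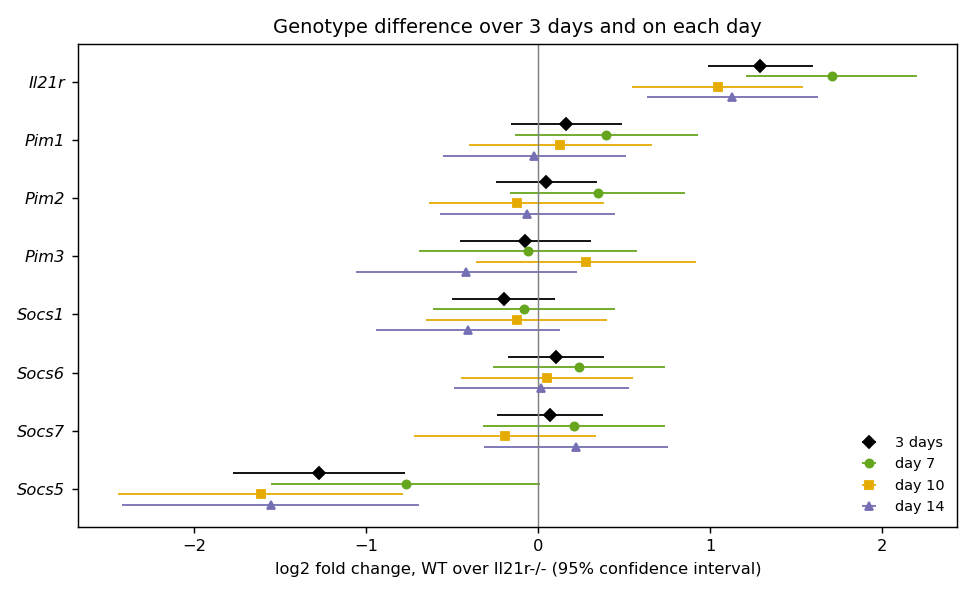
Log2 fold change of WT over Il21r-/- with its 95% confidence interval for Il21r and the 7 members that passed the filter, over 3 days (diamonds) and on day 7, 10 and 14 (circles, squares and triangles). The intervals of Socs5 lie below 0 over 3 days and on days 10 and 14, and those of Socs1, Socs6, Socs7, Pim1, Pim2 and Pim3 include 0.

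*Socs1* encodes an inhibitor that blocks JAK kinases directly and is induced by interferons and by several interleukins. The gene (Entrez 12703) lies at chr16:10783808-10785536 on the minus strand. Its WT libraries had 15.5, 16.1 and 12.3 CPM on days 7, 10 and 14, and its *Il21r*-/- libraries had 16.4, 17.5 and 16.3 CPM. All *Il21r*-/- libraries were above all WT libraries, by a narrow margin (16.3 against 16.1 CPM). The means were 14.6 ± 2.02 and 16.8 ± 0.654 CPM (SD, n = 3 each), and the log2 fold change of -0.20 (95% interval -0.50 to 0.10) was not called (adjusted p = 0.428, edgeR's quasi-likelihood test). Among the 7 tested members 2, *Socs1* and *Socs5*, had genotypes that did not overlap, where 18.4% of all tested genes did.

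*Socs6* and *Socs7* belong to the branch of the family linked to receptor tyrosine kinases and insulin signalling. *Socs6* (Entrez 54607, chr18:88865169-88894364) had 17.5, 16.8 and 14.7 CPM in WT and 14.8, 16.2 and 14.5 CPM in *Il21r*-/- on days 7, 10 and 14. *Socs7* (Entrez 192157, chr11:97362292-97398542) had 22.0, 20.2 and 20.4 CPM in WT and 19.0, 23.1 and 17.5 CPM in *Il21r*-/-. For both genes the genotypes overlapped. The log2 fold change was 0.10 (95% interval -0.18 to 0.38) for *Socs6* and 0.07 (-0.24 to 0.37) for *Socs7*, with adjusted p = 0.689 and 0.815 by edgeR's quasi-likelihood test.

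*Cish* and *Socs2* are classical targets of STAT5 and inhibitors of growth factor, growth hormone and T cell receptor signalling. *Cish* (Entrez 12700, chr9:107296659-107302784) had 0, 2 and 0 counts in WT and 3, 5 and 5 counts in *Il21r*-/- libraries on days 7, 10 and 14. The genotypes did not overlap, and the sum of 13 against 2 counts gave a ratio of 6.43 in favour of *Il21r*-/- (95% interval 1.46 to 58.7, counting error only). It was not called in the fit of all genes with a count (adjusted p = 0.261, edgeR's quasi-likelihood test). Exons of *Gm17040* and *Gm17041* lie over exons of *Cish* on the other strand, and since the strand setting of the counting is not given, reads of these genes cannot be told apart. *Socs2* (Entrez 216233, chr10:95383903-95417321) had 3, 1 and 2 counts in WT and 3, 3 and 1 in *Il21r*-/-, and no difference was detectable at this depth.

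None of the 3 PIM kinase genes was called. *Pim1* (Entrez 18712, chr17:29490785-29496111), the member best known as a cytokine-induced gene, had 97.1, 108.5 and 83.5 CPM in WT and 73.7, 99.3 and 84.8 CPM in *Il21r*-/- on days 7, 10 and 14. The lowest value was that of the day 7 *Il21r*-/- library, and on day 14 the genotypes differed by less than on the other days. The log2 fold change was 0.16 (95% interval -0.16 to 0.49, adjusted p = 0.56, edgeR's quasi-likelihood test) over 3 days and 0.40 ± 0.27 (SE, adjusted p = 0.999, edgeR's likelihood ratio test) on day 7. An antisense gene, *Gm26885*, overlaps exons of *Pim1*, and its reads could be among those counted.

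*Pim2* (Entrez 18715, chrX:7878306-7883432) encodes the kinase most tied to survival of B lineage cells. It had 27.2, 24.9 and 24.5 CPM in WT and 21.4, 27.1 and 25.5 CPM in *Il21r*-/- on days 7, 10 and 14. *Pim3* (Entrez 223775, chr15:88862194-88865726) had 10.1, 10.0 and 8.46 CPM in WT and 10.5, 8.24 and 11.3 CPM in *Il21r*-/-. Both genes changed order between days. The log2 fold change was 0.05 (95% interval -0.25 to 0.34) for *Pim2* and -0.07 (-0.45 to 0.31) for *Pim3*, with adjusted p = 0.872 and 0.844 by edgeR's quasi-likelihood test. For the 6 uncalled members that passed the filter, the intervals over 3 days leave room for a change of at most 1.42-fold in either direction.

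None of the 7 members that passed the filter was called for a linear effect of day, where 4.43% of all genes were, by edgeR's quasi-likelihood test. The member with the lowest p was *Socs5*, with a change of -0.66 ± 0.27 on the log2 scale from day 7 to day 14 (SE, adjusted p = 0.181), and it was the 1 member under an unadjusted p of 0.05. The other members ranged from -0.18 for *Socs1* to 0.03 for *Pim2*. DESeq2 also called none of them.

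Compared per length, the members spanned more than 3 orders of magnitude. *Pim1* was the highest, with a mean of 51.8 RPKM over the 6 libraries (41.9 to 61.7). *Socs1* followed with 12.9 RPKM (10.1 to 14.4) and *Pim2* with 12.3 RPKM (10.5 to 13.4), and the ranges of these neighbours overlapped. *Socs6* at 4.91 RPKM (4.53 to 5.44) and *Pim3* at 4.04 RPKM (3.41 to 4.68) also overlapped, whereas *Socs7* at 2.90 RPKM (2.49 to 3.29) lay below both. *Socs5* had a mean of 0.985 RPKM, 0.413 to 0.877 in WT and on average 1.38 ± 0.149 (SD, n = 3) in *Il21r*-/-. The members at the foot of the scale were *Socs3*, with 0.204 to 0.369 RPKM in WT and up to 0.0159 in *Il21r*-/-, *Cish* with at most 0.0922 RPKM and *Socs2* with at most 0.0482 RPKM. In WT libraries *Socs3* had the third lowest mean, and in *Il21r*-/- libraries its mean, which rests on 2 counts in all, was below those of *Cish* and *Socs2*.

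**Figure D3:**
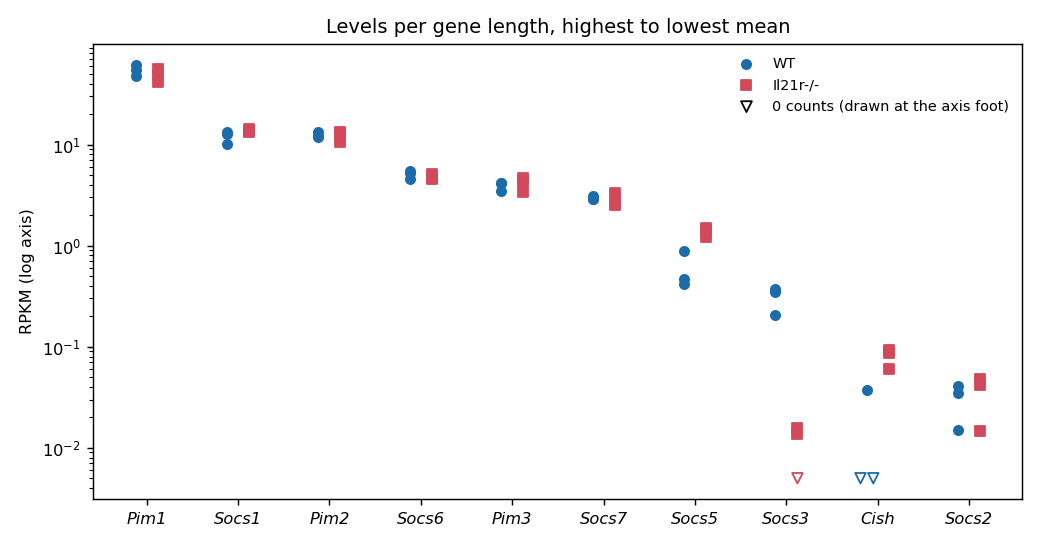
Level per gene length (RPKM, log axis) of the 10 genes in each library, ordered by the mean over 6 libraries, WT as circles and Il21r-/- as squares, with open triangles at the axis foot for libraries with 0 counts. Pim1 was the highest at 51.8 RPKM on average and Socs2 the lowest at 0.0325 RPKM. The genotypes do not overlap at Socs1, Socs5, Socs3 and Cish, by a narrow margin at Socs1 and with at most 5 counts per library at Cish. Of all tested genes 18.4% did not overlap, and Socs3 and Cish were below the filter for testing.

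The genes around this feedback loop were read from 6 lists. Of 18 cytokine receptor chains 14 passed the filter, of which 2 were called as higher in WT and 5 as higher in *Il21r*-/-, with a median log2 fold change of -0.46 against -0.01 over all genes. Of the 2 higher in WT, 1 was *Il21r* itself and the other *Il2rb*, the shared beta chain of the IL-2 and IL-15 receptors, which had a mean of 3.64 ± 0.660 CPM in WT (SD, n = 3) and 0.823, 0.378 and 0.199 CPM in *Il21r*-/- on days 7, 10 and 14. The *Il21r*-/- libraries held only 19, 10 and 5 counts of it. Every WT library was above every *Il21r*-/- library. Days 10 and 14 were called, but day 7 was not (adjusted p = 0.0741, edgeR's likelihood ratio test). Over 3 days the log2 fold change was 3.02 ± 0.37 (SE, adjusted p = 0.00277, edgeR's quasi-likelihood test). *Il9r*, the IL-9 receptor chain, had 5.56, 8.03 and 9.81 CPM in WT and 19.5, 43.5 and 58.6 CPM in *Il21r*-/- (log2 fold change -2.30 ± 0.20 (SE), adjusted p = 0.000646, same test). *Ifngr2*, a chain of the interferon gamma receptor, had 14.3 to 25.8 CPM in WT and 29.9 to 40.8 CPM in *Il21r*-/- (log2 fold change -0.93, adjusted p = 0.00427, or 0.0686 without the WT day 14 library, same test). *Il10ra*, *Il10rb* and *Il27ra* were the other 3 receptor chains called as higher in *Il21r*-/-. The *Il10ra* call was lost with the day as a replicate block (adjusted p = 0.157, same test) and without any 1 of the 4 libraries of days 10 and 14 (adjusted p from 0.0886 to 0.245). The *Il10rb* call was lost without the WT day 10 library (0.0543), the WT day 14 library (0.176) or the *Il21r*-/- day 14 library (0.071), and that of *Il27ra* without any 1 WT library (0.0744, 0.0881 and 0.14 without day 7, 10 and 14).

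The next 3 lists hold the intracellular components of the pathway. Of 11 JAK kinases and STAT factors 1 was called, *Jak3*, the kinase bound to the common gamma chain, with 49.3 to 58.2 CPM in WT and 31.4 to 41.3 CPM in *Il21r*-/- (log2 fold change 0.62, adjusted p = 0.0296, edgeR's quasi-likelihood test). Of 14 other inhibitors 1 was called, *Ptpn1*, a tyrosine phosphatase that acts on JAK kinases, with 220.0 to 258.7 CPM in WT and 150.9 to 186.7 CPM in *Il21r*-/- (log2 fold change 0.51, adjusted p = 0.0242, same test). Both calls were lost in 5 of the 6 leave-one-out fits, all but the fit without the *Il21r*-/- day 10 library, with adjusted p from 0.0685 to 0.144 for *Jak3* and from 0.0649 to 0.167 for *Ptpn1*. Of the 6 ubiquitin ligase partners of the SOCS box edgeR's quasi-likelihood test called 0, with 1 under an unadjusted p of 0.05, and DESeq2 called 1. With the day as a replicate block, 2 of the 11 JAK kinases and STAT factors were called as higher in WT (*Jak3*, and *Stat3* with adjusted p = 0.00458, edgeR's quasi-likelihood test) and 3 as higher in *Il21r*-/- (*Jak2*, *Tyk2* and *Stat4*). The same fit called 1 of the other inhibitors in each direction and 1 SOCS box partner as higher in WT. The medians of these 3 lists were -0.04, 0.01 and 0.05 on the log2 scale.

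Of 16 other STAT target genes 1 was called as higher in WT and 4 as higher in *Il21r*-/-, with a median log2 fold change of -0.06. *Prdm1*, the regulator of plasma cell fate, had 1.38 to 1.82 CPM in WT and 0.260 to 0.677 CPM in *Il21r*-/-. The *Il21r*-/- libraries held only 6, 16 and 17 counts of it on days 7, 10 and 14. Its log2 fold change was 1.64 (adjusted p = 0.0216, edgeR's quasi-likelihood test). The call was lost in 5 of the 6 leave-one-out fits (adjusted p from 0.0573 to 0.0662, same test). *Fcer2a*, the low-affinity IgE receptor CD23 and a target of STAT6, had 389.3, 217.5 and 153.0 CPM in WT and 801.6, 783.5 and 506.7 CPM in *Il21r*-/- (log2 fold change -1.54, adjusted p = 0.00119, same test). *Il4i1*, an IL-4 induced amino acid oxidase, and *Bcl2l1*, which encodes the survival protein BCL-XL, were higher in *Il21r*-/- (log2 fold changes -1.21 and -0.98, adjusted p = 0.0139 and 0.0123, same test). Both calls were lost without the WT day 14 library (adjusted p = 0.135 and 0.149), and that of *Il4i1* also without the WT day 10 library (0.0554) or the *Il21r*-/- day 14 library (0.071). *Bcl2* was the 4th gene called as higher in *Il21r*-/-, and its call was lost without the *Il21r*-/- day 7 library (adjusted p = 0.0655, same test), the WT day 14 library (0.152) or the *Il21r*-/- day 14 library (0.0675). With the day as a replicate block, 4 genes of the list were called as higher in WT and 5 as higher in *Il21r*-/-.

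Of 11 substrates of the PIM kinases 2 were called, both as higher in *Il21r*-/-. *Cdkn1b*, the cell cycle inhibitor p27, had 10.1 to 16.9 CPM in WT and 19.2 to 26.5 CPM in *Il21r*-/- (log2 fold change -0.79, adjusted p = 0.0107, edgeR's quasi-likelihood test). *Foxo3*, a transcription factor that restrains the cell cycle, had 2.88 to 4.36 CPM in WT and 5.34 to 6.77 CPM in *Il21r*-/- (log2 fold change -0.86, adjusted p = 0.0242, same test). Without the WT day 14 library the adjusted p was 0.122 for *Cdkn1b* and 0.178 for *Foxo3*, and without the *Il21r*-/- day 14 library it was 0.0636 and 0.105. The *Foxo3* call was also lost without the WT day 10 library (0.104) or the *Il21r*-/- day 7 library (0.0508). The median of the list was -0.02 on the log2 scale, near that of all genes.

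**Figure D4:**
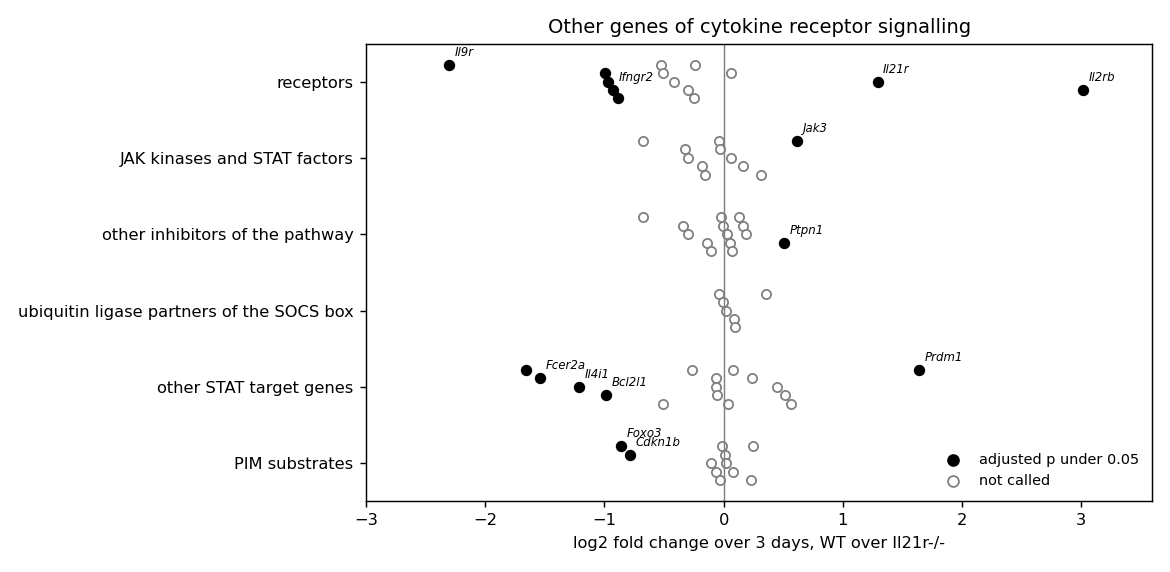
Log2 fold change of WT over Il21r-/- over 3 days (1 point per tested gene, spread vertically for legibility) for 6 lists of genes around the SOCS and PIM feedback loop, with called genes filled and the called genes with the lowest p of each list named. Il2rb at 3.02 and Il9r at -2.30 are the outermost points, and most points of the other lists lie near 0.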

How the data were processed

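Single-end reads were aligned to mm10 (GRCm38) by the authors with Rsubread. The deposited values are raw read counts per RefSeq gene from featureCounts, with technical replicates pooled and no normalization. Base calls came from CASAVA 1.8.2 per the submitters' processing notes. The strand and multi-mapping settings are not given in the sources used here. The 6 files of single libraries were identical to the table, and 0 columns were without a sample. Symbols came from RefSeq (GRCm38.p6) for 25275 genes and GENCODE for 18, and 1886 stayed unnamed.

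Analysis used R 4.3.3, edgeR 4.0.16, limma 3.58.1 and DESeq2 1.42.0. Following the study's methods, the fits excluded genes whose average log2 CPM was under 0, Ig variable genes, *Xist* and genes of the Y chromosome. This left 11005 genes, slightly fewer than the study kept, and TMM factors were used. For day 7 the study reports more called genes than the 118 here, most of them higher in WT. Here 22 were higher in WT and 96 in *Il21r*-/-, and the reason for the difference was not tested. The quasi-likelihood test of edgeR was used for genotype, linear day and their interaction (robust, 3 residual degrees of freedom, common dispersion 0.017), and genotype on a single day with a likelihood ratio test. SEs of quasi-likelihood fits are the log2 fold change divided by the root of F. CPM and RPKM used all counts and the TMM factors. The fits were run on simulated counts with a genotype effect but no effect of day and no shared deviation of same-day libraries. How they behave with such effects was not tested.

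Libraries of the same day deviated together (r = 0.64, 0.413 and 0.645 across 11005 genes on days 7, 10 and 14), so the day pairs the genotypes. Alternatives were the day as a replicate block, DESeq2 (size factors, Wald test), other filters, the left-out genes kept, the linear day term kept in the day-wise fit, day as a factor, and each library left out in turn. In the single-day tests a left-out library was dropped from the estimate of spread only. The unfiltered alternatives for *Socs3*, *Cish* and *Socs2* were chosen after seeing the data.

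The members, lists, rules and tests were chosen with earlier results of these data known. All members, *Il21r* and *Socs4* are named. Of a list, at most the 4 called genes with the lowest p are named with values, and the 3 genes most like a called member are given. *Il10ra*, *Il10rb*, *Il27ra*, *Bcl2*, *Msh6* and the called light zone markers were named after their values were seen. *Jak2*, *Tyk2*, *Stat3*, *Stat4* and *Adgre1* were too. Of 5 tested plasma cell genes 1 was called as higher in WT and 1 as higher in *Il21r*-/-, or 1 and 4 with the day as a replicate block. Of 3 tested myeloid genes edgeR's main test and DESeq2 called 0, with 1 under an unadjusted p of 0.05, and the replicate block called 1, *Adgre1*, as higher in *Il21r*-/-. Of 2 tested erythroid genes edgeR, DESeq2 and the replicate block called 0, with 0 under an unadjusted p of 0.05.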

Additional observations from a re-analysis of the deposited data

How the results depend on the processing

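Over 3 days, 651 genes were called, 1028 with no filter on low counts, 2519 with the day as a replicate block, and 132 to 2165 when a library was left out (132 without the WT day 14 library, 2165 without the *Il21r*-/- day 10 library). On day 7, 118 genes were called, and 303 with the block. On day 10, 341 were called, 822 with the block and 722 with the linear day term kept. On day 14, 361 were called, and 1055 with the block. The single-day fits kept all 6 libraries, and a left-out library was dropped only from the estimate of spread. That gave 104 to 220 genes on day 7, 267 to 643 on day 10 and 288 to 704 on day 14. These ranges do not show the effect of losing a library. For the linear day effect, 488 were called, 880 with no filter, 870 with DESeq2, 3969 with day as a factor, and 0 to 2177 when a library was left out (0 without the WT day 7 library, 5 without the WT day 14 library). For the difference of the day effect, 0 were called, 31 with the block, and 0 to 12 when a library was left out. Members called over 3 days were 1, 2 with no filter, and 0 to 1 when a library was left out. The block changed no call of a member.

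*Socs5* kept its direction over 3 days in all 12 alternatives (-1.57 to -1.14) and its call in 10. *Socs1*, *Socs6* and *Pim1* kept their direction in 12 of 12 and were not called. When a library was left out, the sign turned for *Socs7* (-0.0067 to 0.19), *Pim2* (-0.0665 to 0.12), *Pim3* (-0.20 to 0.12), *Socs4* (-0.0538 to 0.13), *Socs2* in the unfiltered fit (-0.66 to 0.12) and the *Socs5* difference of the day effect (-1.80 to 0.0442). None of these was called. *Socs3* kept its call in all 8 unfiltered alternatives, and *Cish* was called in none of 8. At this depth a fold of *Socs3*, *Cish* or *Socs2* rests on 0 to 3 counts in each library of the lower genotype, which sets its precision. The design with 1 library of each genotype per day gives no replicate check on a single day. The causes of the moved values were not tested.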
